A study of Caenorhabditis elegans with 12 samples.

Results

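Promoter accessibility in the body wall muscle of met-2 set-25 double mutant larvae was compared with that of wild-type (WT) larvae. The comparison used the 3 met-2 set-25 libraries, the 3 WT libraries and every promoter window with a count above 0 in at least 1 of these 6 libraries, which kept 51277 of the 51519 windows in the count table. ATAC-seq, in which the Tn5 transposase cuts open DNA and tags it for sequencing, had been applied to sorted muscle cells of third-stage (L3) Caenorhabditis elegans larvae of 4 genotypes, with 3 libraries each. The double mutant carried met-2(n4256) and set-25(n5021), both on chromosome III, and the labels give WT as N2 (Bristol). According to the methods, cells were sorted by a red fluorescent protein under the myo-3 muscle promoter, carried on the integrated multicopy array gwIs4, which the labels do not list for any genotype. The study describes the 3 ATAC-seq libraries of each genotype as independent biological replicates, while the growth protocol in the labels mentions fewer. The p-values below measure the spread between these libraries, and whether part of it is technical was not settled.

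MET-2, a SETDB1-like enzyme, deposits mono- and dimethylation on lysine 9 of histone H3 (H3K9), and SET-25 adds trimethylation. Larvae without both enzymes lack H3K9 methylation, a mark of silent heterochromatin that is enriched on chromosome arms, on repeats and on genes used in other tissues. Body wall muscle is built from sarcomeres of thick myosin filaments and thin actin filaments, which are anchored to the basement membrane through integrin attachments. An ATAC-seq count at a promoter reports how open that stretch of DNA was and not how strongly the gene was transcribed. In bulk samples, a larger share of muscle cells and more open DNA in each muscle cell cannot be told apart.

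A window is a stretch of 1700 bases at the start of a RefSeq transcript, with coordinates on the ce10 assembly. Its normalized count is the count divided by the total of its library and multiplied by the mean total of the 12 libraries. The totals lay between 84807679 and 102572232 counts in met-2 set-25 and between 50148450 and 79463030 in WT, and the median window held 1480 counts, so most windows were measured with little counting error. Windows of 564 transcripts combine several intervals, and windows of neighbouring or antisense genes overlap and share reads, because reads were counted on both strands. Of the windows, 49191 were assigned to a gene. To count each gene once, the window with the highest mean count over the 12 libraries was taken, which gave 40268 genes, 19156 of them protein-coding.

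The met-2 set-25 libraries stood apart from WT in 2 general properties that bear on all results below. The first is a signal index, the percentage of autosomal counts that fell into the 2227 windows with the highest mean in the set-25 libraries, the top 5% without the 10 windows with the most counts. The met-2 set-25 libraries had an index of 10.1, 11.3 and 10.4%, those of WT 9.31, 9.98 and 9.08%, with means of 10.6 ± 0.600 and 9.46 ± 0.471% (SD, n = 3 each). The second is the share of counts on the X chromosome, which amounted to 14.1, 14.3 and 14.1% for met-2 set-25 against 13.1, 13.6 and 13.3% for WT. For both measures every met-2 set-25 library lay above every WT library (exact two-sided permutation test, p = 0.1, the smallest that 3 libraries against 3 allow). Replicate 2 had the highest index and the highest share of X counts in both genotypes.

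Among the promoter windows called in met-2 set-25 muscle, far more were higher than lower, and nearly all of the called changes were small. Counts were higher at 1763 windows (3.44% of those tested) and lower at 375 (0.731%) at a false discovery rate (FDR) below 0.01 in edgeR's quasi-likelihood test over all windows. By gene, 1278 promoters were higher (3.17%) and 301 lower (0.747%). On the log2 scale the higher genes had a median change of 0.33, with quartiles of 0.28 and 0.40, and 70 of them changed by more than 0.5. The lower genes had a median of -0.25 and 3 changed by more than 0.5. At 1225 of the 1278 higher genes each met-2 set-25 library exceeded each WT library, an arrangement found at 9.54% of all genes tested. At 297 of the 301 lower genes each met-2 set-25 library lay below each WT library, against 17.7% of all genes. At an unadjusted p below 0.05 the order was the other way, with 9.74% of all genes higher and 16.3% lower. The median log2 change of all genes was -0.05, and the median standard error of a window was 0.063. With edgeR's TMM factors 94.6% of the called windows were higher, against 82.5% with column totals. These counts rested heavily on single libraries and on the signal index. Without met-2 set-25 replicate 2, 244 windows were higher and 16 lower, without WT replicate 3, 330 and 41, without WT replicate 1, 547 and 87, and without WT replicate 2, 2705 and 914. When the log2 of the index entered the fit as a covariate, 32 higher and 7 lower windows were called. Since the index is itself higher in the double mutant, index and genotype cannot be told apart in these libraries.

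**Figure D1:**
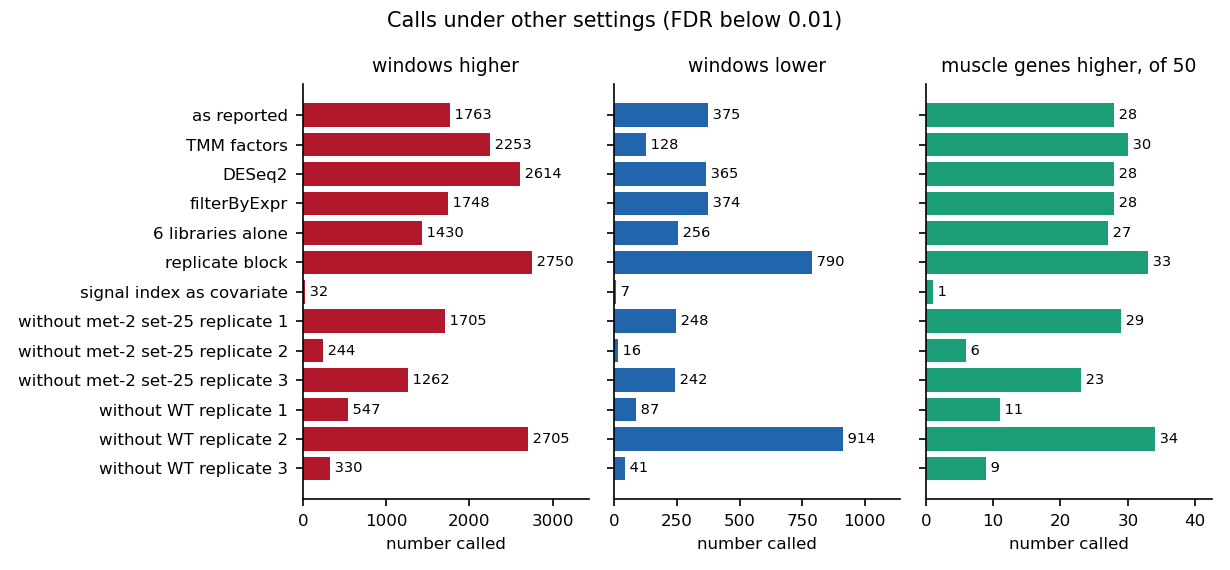
Number of windows called higher, windows called lower and body-wall muscle genes called higher (horizontal axes, FDR below 0.01) in met-2 set-25 over WT, as reported and under 12 other settings (rows). The bars are shortest for the index covariate (32 windows higher, 7 lower and 1 muscle gene) and short without met-2 set-25 replicate 2 (244, 16 and 6).

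On chromosome I, 3 neighbouring protein-coding genes had higher counts in the double mutant than in any other genotype. Y47H10A.4, at 12094547 to 12096246, had 3995, 4399 and 4087 normalized counts in met-2 set-25 against 2053, 2203 and 1880.3 in WT. The double mutant thus had about 2 times the WT count in each library, a log2 fold change (log2FC) of 1.02 with a standard error (SE) of 0.081 (adjusted p = 7.7e-15 from edgeR). The means of the single mutants, 2094 in met-2 and 2005 in set-25, lay within the range of the WT libraries. Y47H10A.5, named after its values were seen, lies at 12097779 to 12099478 and had 3062, 3191 and 3041 counts in met-2 set-25 against 1874, 1720.0 and 1891 in WT (log2FC 0.76, SE 0.068, adjusted p = 1.3e-12). Its means of 1733 in met-2 and 1815 in set-25 lay within the WT range. The third gene, rrf-2, encodes a member of the RNA-directed RNA polymerase family and lies at 12106199 to 12107898. Its counts were 1998, 2086 and 1914 in met-2 set-25 against 1589, 1530.1 and 1430.5 in WT, a log2FC of 0.40 (SE 0.056, adjusted p = 1.6e-06). At rrf-2 the met-2 mean of 1755 also lay above every WT library, and the set-25 mean of 1574 lay within the WT range. The next genes on either side, Y47H10A.3 and M01G12.14, had a log2FC of -0.01 and 0.06 and were not called (adjusted p = 0.94 and 0.58), and the direction at Y47H10A.3 turned with the scaling. Y47H10A.4 and Y47H10A.5 also passed the test with the signal index as a covariate, and rrf-2 came close to the threshold there (adjusted p = 0.012).

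At 3 other loci with a log2FC beyond 0.9, either or both of the single mutants had a level like that of the double mutant, and differences between the strains in DNA sequence were not tested there. The window of phkb-1, named for a phosphorylase kinase subunit, on chromosome IV held 905, 949 and 923 normalized counts in met-2 set-25 against 2, 4 and 3 in WT. Its mean was 900.3 in met-2 and 959 in set-25, so WT alone was nearly empty there, with 1 to 4 raw counts in each library, and no fold is given. The window of irld-45, a receptor L-domain gene on chromosome V, had 873, 794 and 909 counts in met-2 set-25, against 1583, 1621 and 1827 in WT, with means of 927 in met-2 and 949.6 in set-25. At the piRNA gene 21ur-12617, which lies close to the set-25 start on chromosome III, counts were 443, 448 and 435 in met-2 set-25, against 1834, 1749 and 1893 in WT. The set-25 mean of 496 was as low, and the met-2 mean of 1823 lay within the WT range. The windows at the starts of met-2 and set-25 themselves gave a log2FC of -0.07 and 0.11 and were not called (adjusted p = 0.47 and 0.40). Both signs turned with the signal index as a covariate, and as these windows cover the gene starts alone, they do not check the labels.

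Below a log2FC of 0.9, the 12 higher loci with the smallest FDR that carried a named protein-coding gene held several genes of muscle. They were led by myo-3, which encodes myosin heavy chain A of the thick filament, on chromosome V from 12234125 to 12235824. It held 436682, 487639 and 453042 counts in met-2 set-25 against 354204, 397410 and 325021 in WT (log2FC 0.36, SE 0.033, adjusted p = 6.7e-12). The reporter array carries the myo-3 promoter too, so counts from the array and from the endogenous gene cannot be told apart. Over all windows the median in WT was 1512 normalized counts, far below myo-3, and the part of the array in the myo-3 counts was not measured. The gene sup-9, which encodes a potassium channel subunit that sets muscle excitability, lies on chromosome II from 2686839 to 2688538. It had 2408, 2623 and 2449 counts in met-2 set-25, against 1496, 1732 and 1469.9 in WT. The difference was 0.67 on the log2 scale (SE 0.068, adjusted p = 1.8e-10), and sup-9 was called under each setting tried.

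Both troponin genes among the leading loci lie on X. For unc-27, which encodes troponin I, the 3 met-2 set-25 libraries had 2790.5, 3393 and 2849 counts and the WT libraries 1876, 2285 and 1892. For mup-2, which encodes troponin T, they had 2919.8, 3727 and 3096 counts, against 1962, 2438 and 2011 in WT. Each double mutant library exceeded each WT library at both genes, with a log2FC of 0.58 (SE 0.085, adjusted p = 6.5e-06) and 0.60 (SE 0.091, adjusted p = 9.1e-06). Likewise on X, cas-1, a cyclase-associated protein that acts on actin filaments, had 2262, 2526 and 2298 counts in met-2 set-25 against 1676, 1854 and 1694 in WT (log2FC 0.44).

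The other leading higher loci held genes of signalling, stress and other functions. At nipi-3, a Tribbles-like pseudokinase gene on X, counts were 4174, 5331 and 4503 in met-2 set-25, against 3019.8, 3447 and 2724 in WT, a log2FC of 0.61 (SE 0.097, adjusted p = 2.9e-05). The bZIP transcription factor gene zip-1 had 1805, 1972 and 1803 counts in met-2 set-25, against 1448, 1495 and 1379 in WT (log2FC 0.37). At both genes the lowest met-2 set-25 library exceeded the highest WT library. The transthyretin-like gene ttr-36, at 1930.4, 2029 and 1945 counts in met-2 set-25 against 1387, 1504 and 1437 in WT, had a log2FC of 0.45. The remaining leaders were test-1, a testican-like proteoglycan gene, with a log2FC of 0.41, srh-2, a chemoreceptor gene, with 0.49, and tag-342, with 0.16 from 84938, 87318 and 89699 counts in met-2 set-25 against 79373, 77192 and 77620.2 in WT. The gene tag-342 lies next to baf-1, whose promoter is also on the reporter array, so here too counts from the array and from the endogenous locus cannot be told apart. All 12 were also called without met-2 set-25 replicate 2 and without WT replicate 1 or 3. A second window of srh-2, with a log2FC of 0.41, was not called without met-2 set-25 replicate 2 or without WT replicate 3 (adjusted p = 0.033 and 0.034). With the signal index as a covariate, sup-9 and the array-linked myo-3 and tag-342 were called and the other 9 were not, among them unc-27, mup-2 and nipi-3 (adjusted p = 0.15, 0.19 and 0.20).

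**Figure D2:**
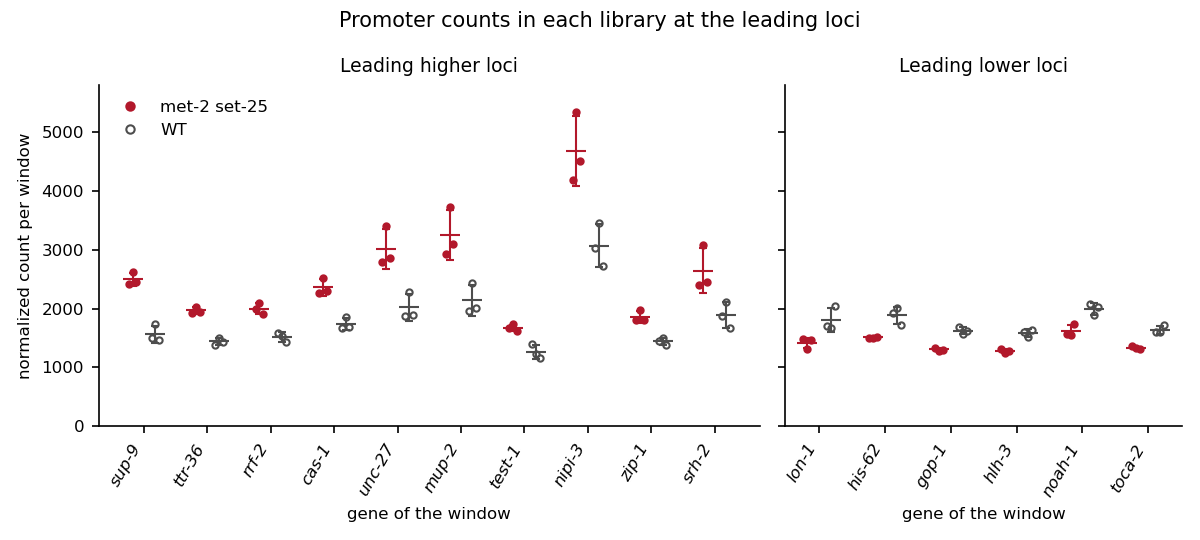
Normalized count per window (vertical axis) of each library at leading higher (left) and lower (right) loci, with met-2 set-25 as filled red and WT as open grey points, and the mean and SD of 3 libraries as lines. myo-3 and tag-342 are off this scale and not drawn; at each gene shown the 3 met-2 set-25 points lie on one side of the 3 WT points, as at sup-9 with 2408 to 2623 against 1469.9 to 1732.

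The 6 leading lower loci had a log2FC between -0.35 and -0.30. The promoter of lon-1, a secreted regulator of body size under TGF-β control, had 1475, 1319.9 and 1467 counts in met-2 set-25, against 1698, 1670.5 and 2038 in WT (log2FC -0.35, SE 0.062, adjusted p = 0.00017). The core histone gene his-62 had 1506, 1499 and 1522 in met-2 set-25, against 1916, 2013 and 1722 in WT (log2FC -0.32, SE 0.057, adjusted p = 0.00017). It alone of the 6 also passed with the signal index as a covariate, and the single mutants had means below the WT libraries as well, 1612 in met-2 and 1599.9 in set-25. Counts at the proneural bHLH gene hlh-3 were 1319, 1243 and 1280.3 in met-2 set-25, against 1604, 1512 and 1639.5 in WT (log2FC -0.31). The other lower leaders were gop-1, which acts in the clearance of cell corpses, with a log2FC of -0.31, noah-1, an apical matrix gene of the epidermis, with -0.30, and toca-2, an F-BAR gene of membrane trafficking, with -0.30. Of these 6, lon-1, hlh-3 and noah-1 were not called without met-2 set-25 replicate 2 (adjusted p = 0.010, 0.011 and 0.018), and lon-1, hlh-3 and toca-2 were not called without WT replicate 3 (adjusted p = 0.020, 0.012 and 0.016).

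The promoters of body wall muscle genes were higher as a group. Of 50 genes listed for sarcomeres, attachments, excitation and muscle fate, 28 (56%) were called higher and none lower in met-2 set-25, against 3.17% and 0.747% of all genes. At an unadjusted p below 0.05, 39 were higher and 0 lower, and DESeq2 also called 28 higher and 0 lower. The median log2FC of the list was 0.28, that of all genes -0.05. The log2FC was positive at 48 of the 50, and at 35 the 3 met-2 set-25 libraries lay above the 3 WT libraries, against 9.54% of all genes. Because myo-3 is carried on the array, the list was also summed without it. The normalized counts of the other 49 promoters added up to 117834, 134407 and 121891 in the met-2 set-25 libraries and to 98074, 110607 and 95197 in the WT libraries. The means were 124711 ± 8639 and 101293 ± 8194 (SD, n = 3 each), which is 23.1% higher in met-2 set-25, and the lowest met-2 set-25 library exceeded the highest WT library.

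The muscle count moved with the same libraries as the total did. Of the list, 6 genes were called without met-2 set-25 replicate 2 (myo-3, unc-27, mup-2, dim-1, hlh-1 and sgn-1), 9 without WT replicate 3, 11 without WT replicate 1 and 34 without WT replicate 2. With the signal index as a covariate myo-3 alone was called, and the median log2FC of the other 49 was 0.06. The index is drawn from the autosomal windows with the highest signal in the set-25 libraries. Of these 49 genes, 24 lay on autosomes in the highest decile of that signal. Index and muscle promoters may thus share windows, so the covariate is not independent of the muscle list, and the overlap was not counted. The libraries with the highest signal index, replicate 2 of both genotypes, also had the highest muscle sums. The part of the signal index in the muscle result was not tested apart from this covariate.

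**Figure D3:**
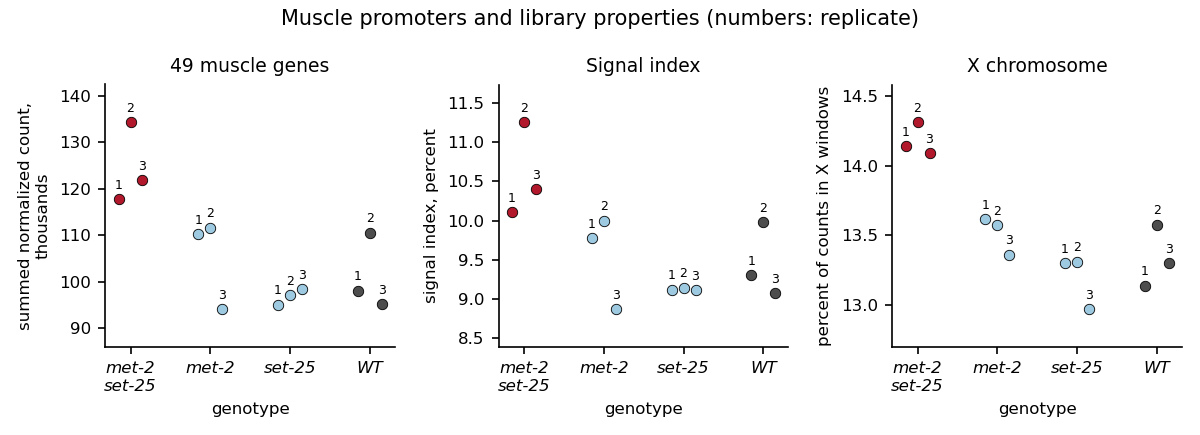
Summed normalized count of 49 muscle promoters (left, shown divided by 1000), signal index in percent (middle) and percent of counts in X windows (right) of each library, by genotype from met-2 set-25 on the left to WT on the right, with numbers for the replicate. The 3 met-2 set-25 libraries are the highest of all 12 in each panel, and WT replicate 2, at 110607 counts and an index of 9.98%, is the highest WT library.

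Within the list, each functional group had higher members, and no difference between the groups was tested. The grouping and the genes named here beyond myo-3, unc-27 and mup-2 were chosen after the values were seen. Of 10 thick filament genes, 6 were called and the median log2FC was 0.37. The second body wall myosin heavy chain, unc-54, had 2808, 3398 and 2890.0 counts in met-2 set-25, against 2170.0, 2674 and 2098 in WT (log2FC 0.39, SE 0.087, adjusted p = 0.0020). The light chain genes mlc-2 and mlc-3 gave 0.43 and 0.44, and the obscurin-like giant protein gene unc-89 gave 0.39. In contrast, unc-15, which encodes paramyosin of the filament core, had 2020.2, 2081 and 1859 counts in met-2 set-25 against 1893, 2054 and 1883 in WT. Its groups overlapped, with a log2FC of 0.03 (SE 0.063, adjusted p = 0.79), and its sign turned without met-2 set-25 replicate 2. The twitchin gene unc-22 had a log2FC of 0.15 and was not called (adjusted p = 0.16).

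Of 12 thin filament genes, 8 were called, with a median log2FC of 0.31. Besides unc-27 and mup-2, they included tnt-2, a further troponin T gene on X, with 2602, 3202 and 2803 counts in met-2 set-25, against 1996, 2364 and 2122 in WT (log2FC 0.41). Of 15 attachment genes, 9 were called, with a median of 0.29. The immunoglobulin-domain gene dim-1, on X from 8052432 to 8054131, had the largest change among these, with 3364, 4059 and 3665 counts in met-2 set-25, against 2335, 3022 and 2179 in WT (log2FC 0.56, SE 0.098, adjusted p = 0.00014). The kindlin gene unc-112, which acts at integrin, had 3623, 4552 and 4079 in met-2 set-25, against 2939.8, 3244 and 2504 in WT (log2FC 0.50). The zinc-finger gene unc-98 and the LIM-domain gene unc-95 gave 0.44 and 0.35, and the beta-integrin gene pat-3 gave 0.29. The met-2 set-25 libraries lay above the WT libraries at 12 of the 15 attachment genes, 4 of which were not called. That arrangement was found at 9.54% of all genes.

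Of 8 genes of excitation and calcium handling, 3 were called, with a median log2FC of 0.20. The calcium pump gene sca-1 had 3177, 4105 and 3267 counts in met-2 set-25, against 2498, 3045 and 2349.9 in WT (log2FC 0.42, adjusted p = 0.0024). The ryanodine receptor gene unc-68 gave 0.33 and the acetylcholine receptor subunit gene unc-63 gave 0.39. The receptor subunit gene unc-29 was not called at 0.16 (adjusted p = 0.060), nor was egl-19, the voltage-gated calcium channel of muscle, at 1909.7, 1951 and 1860.4 counts in met-2 set-25, against 1899.6, 1812 and 1816 in WT (log2FC 0.05, SE 0.059, adjusted p = 0.61). Of 3 genes of the dystrophin complex, the sarcoglycan gene sgn-1 was called, at 0.44, while the dystrophin gene dys-1 was at -0.09 (SE 0.062, adjusted p = 0.37). The MyoD-like factor gene hlh-1, which specifies body wall muscle, had 2471, 2773 and 2362 counts in met-2 set-25, against 1813, 2106 and 1759 in WT (log2FC 0.42, SE 0.075, adjusted p = 0.00017). The SRF-like factor gene unc-120 had a log2FC of 0.28 and missed the threshold (adjusted p = 0.020), although its libraries did not overlap.

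**Figure D4:**
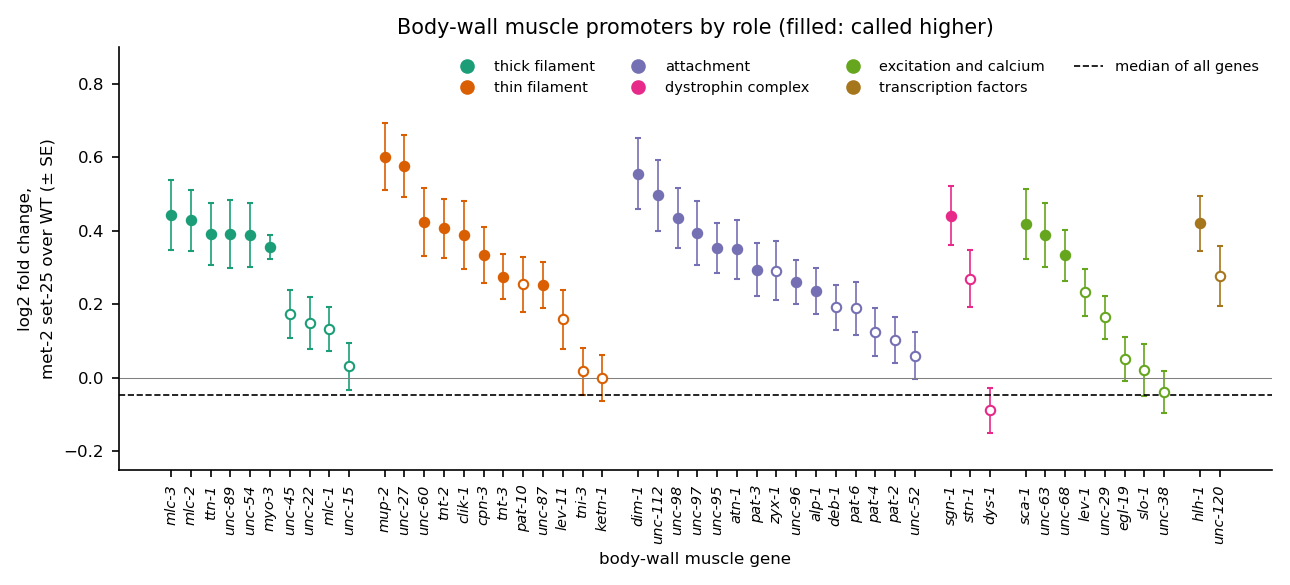
Log2 fold change of met-2 set-25 over WT with its SE (vertical axis) for the 50 body-wall muscle genes, coloured by role and filled where called higher at an FDR below 0.01; the dashed line is the median of all genes. The 28 filled points lie between 0.24 and 0.60, and the 22 open points between -0.09 and 0.29.

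Chromosome and signal level both moved with the muscle result. Among all protein-coding genes, 222 of 2632 on X were higher and 0 lower, against 378 higher and 142 lower of 16524 on the autosomes. Of the 49 muscle genes without myo-3, 9 of 10 on X were called higher (90%), against 9.20% of all genes on X. Of the 39 on autosomes, 18 were called (46.2%), against 789 of all 34953 autosomal genes. The muscle promoters also had a high level to begin with, at a median of 2025 normalized counts in WT with myo-3 included, against 1500 over all genes. In the highest decile of signal in the set-25 libraries, 19 of 31 muscle genes were called (61.3%), against 16.7% of all genes of that decile. On autosomes alone 12 of 24 muscle genes of that decile were called, against 12.8% of all autosomal genes of the decile. On X it was 7 of 7, against 42.8% of all X genes of the decile. In each of these groups the share was larger among the muscle genes than among all genes. The list was drawn up with results of these data known, and no test was run on it.

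Markers of other cell types were not higher as groups, but fewer of them had a high signal. The highest decile of signal in the set-25 libraries held 1 pharynx, 1 intestine, 1 hypodermis, 2 neuron and 5 germline markers, against 32 of 50 muscle genes. Of these markers, 1 germline gene was called higher. Over all genes 16.7% of that decile were higher, against 0.770% of decile 1. The marker and muscle lists were not matched for level. The promoters of 6 pharynx, 9 intestine, 8 hypodermis, 11 neuron and 47 germline genes had sums that differed by -2.56, -3.54, -2.68, -1.40 and -2.56% between met-2 set-25 and WT, the direction of the median of all genes. None of the pharynx, intestine and neuron markers was called by edgeR or DESeq2, and at an unadjusted p below 0.05 edgeR found 0 higher and 1 lower in pharynx, 0 and 2 in intestine and 1 and 2 in neurons. No marker of these lists was at 0 in any of the 6 libraries, since promoters of silent genes also collect ATAC-seq counts. In the hypodermis list nhr-23, a nuclear receptor of moulting, was lower (log2FC -0.22, adjusted p = 0.0072). Of the germline genes, 1 was higher (2.13%) and 2 were lower (4.26%), against 3.17% and 0.747% of all genes. The TRIM-NHL regulator lin-41 had a log2FC of 0.32 (adjusted p = 0.0076), and the RNA-binding protein gene gld-1 and the helicase gene glh-3 were both at -0.22 (adjusted p = 0.0057 and 0.0085). Without met-2 set-25 replicate 2, none of these 4 was called.

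The counts in the gene lists that follow moved with the same libraries. Of 44 counts of higher or lower members that were above 0, those of the muscle and marker lists included, 43 moved by over 1.5 times without met-2 set-25 replicate 2, 41 without WT replicate 3, 37 without WT replicate 1, 21 without WT replicate 2 and all 44 with the index covariate.

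Among transcription factor families, the bZIP genes had the highest median in the main test. It was 0.08 over 25 genes, of which 3 (12%) were called higher and none lower by edgeR, and 8 and 2 at an unadjusted p below 0.05. With the signal index as a covariate the bZIP median was 0.00092, below the 0.0069 of the nuclear hormone receptors, and 0 were called. Without met-2 set-25 replicate 2, and likewise without WT replicate 3, 1 was called. Besides zip-1, the bZIP genes called higher in the main test were cebp-1, a C/EBP-like stress and axon-repair factor on X, and jun-1, the Jun homologue. For cebp-1, counts were 3324, 4269 and 3648 in met-2 set-25, against 2749, 2945 and 2639.9 in WT (log2FC 0.43, SE 0.088, adjusted p = 0.00079). For jun-1, they were 2706, 3079 and 2733 in met-2 set-25, against 2160.4, 2347 and 2053 in WT (log2FC 0.38, adjusted p = 0.0012). The nuclear hormone receptors, a large family in nematodes, had 9 of 269 higher (3.35%) and 2 lower, close to the share over all genes. The smallest FDR among them belonged to nhr-10, with 2251, 2134 and 2096 counts in met-2 set-25, against 1725, 1721 and 1669 in WT (log2FC 0.34, adjusted p = 9.5e-05), followed by nhr-35 and nhr-119 at 0.35 and 0.29. Of 93 homeobox genes 5 were higher (5.38%) and 3 lower (3.23%), against 3.17% and 0.747% of all genes. Among the higher, ceh-74, ceh-39 and ceh-76 were at 0.38, 0.32 and 0.27. Of 38 bHLH genes hlh-1 was higher and hlh-3 lower (2.63% each).

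The 19 transcription factors named by the study included 2 called higher (10.5%, against 3.17% of all genes) and 0 called lower (edgeR, with 3 and 2 at an unadjusted p below 0.05, and 2 and 0 with DESeq2). These were madf-9, with 3455, 4329.9 and 3756 counts in met-2 set-25, against 2746, 3283 and 2407 in WT (log2FC 0.45, SE 0.098, adjusted p = 0.0014), and nhr-48, a relative of the DAF-12 nuclear receptor, with 2676, 3199 and 2973 in met-2 set-25, against 2109, 2582 and 2066 in WT (log2FC 0.39, SE 0.085, adjusted p = 0.0017). Neither was called without met-2 set-25 replicate 2 (adjusted p = 0.039 and 0.032). The other 17 lay between -0.16 and 0.19. Of 9 target and control genes named by the study, edgeR and DESeq2 called none, 1 was lower at an unadjusted p below 0.05, and the log2FC lay between -0.15 and 0.08. The 23 factors of H3K9 methylation and nuclear anchoring had 0 called by edgeR, with 2 higher and 2 lower at an unadjusted p below 0.05, and 1 higher with DESeq2. Their median log2FC was 0.04, and -0.01 with the signal index as a covariate.

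Channel and junction genes gave a mixed picture. Led by sup-9, 5 of 68 potassium channel genes were higher (7.35%) and 2 lower (2.94%), against 3.17% and 0.747% of all genes. The channel gene twk-17 had 2426, 2951 and 2674 counts in met-2 set-25, against 1845, 2358 and 1839.8 in WT (log2FC 0.41), whereas twk-29 had 1387, 1245 and 1297 in met-2 set-25, against 1588, 1606 and 1659 in WT (log2FC -0.31). Neither was called without met-2 set-25 replicate 2 (adjusted p = 0.018 each), without WT replicate 3 (0.017 and 0.011) or with the index covariate (0.79 and 0.45), and twk-17 was not called without WT replicate 1 (0.014). Of 110 ligand-gated channel genes 3 were higher (2.73%) and none lower by edgeR (14 and 20 at an unadjusted p below 0.05, 6 and 0 called with DESeq2). These were unc-63, the GABA receptor gene unc-49, at 0.37 (adjusted p = 0.0028), and the glutamate receptor gene glr-8, at 0.24 (adjusted p = 0.0053). The innexins, which form gap junctions, had inx-11 (0.30), inx-2 (0.24) and 1 further gene higher and inx-13 (-0.23) lower among 25. These shares were 12% higher and 4% lower.

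Most large families of environmental and tissue-specific genes had few genes called higher. Over all genes 3.17% were called higher and 0.747% lower. Chemoreceptor genes had 5 higher and 3 lower of 1287 (0.389 and 0.233%), and at an unadjusted p below 0.05 1.32% were higher and 15.6% lower, against 9.74% and 16.3% of all genes. Only 37 of the 1287 lay in the highest decile of signal in the set-25 libraries. In deciles 1 to 5 of that signal, 0.248 to 0.968% of all genes were called higher. C-type lectin genes had 1 higher (0.429%) and 4 lower (1.72%) of 233. F-box genes had 3 higher (0.977%) and 0 lower of 307 (edgeR, with 9 and 29 at an unadjusted p below 0.05, and 7 and 0 with DESeq2). The 38 pals genes, a family that includes regulators of the intracellular pathogen response, had no call by either tool and 0 higher and 4 lower at an unadjusted p below 0.05. The 70 MATH and BATH genes had no call by either tool, with 3 higher and 5 lower at that level. Collagens had 3 of 173 higher (1.73%) and 1 lower (0.578%). The type IV collagen gene let-2, a basement membrane component made by body wall muscle, had 2870.4, 3355 and 2924 counts in met-2 set-25, against 2085, 2629 and 2273 in WT (log2FC 0.39, adjusted p = 0.0018), while the cuticle collagen genes col-111 and col-54 were at 0.30 and -0.27. Neuropeptide and insulin genes had 0 higher and 3 lower (2.13%) of 141 by edgeR (3 and 38 at an unadjusted p below 0.05, 0 and 4 with DESeq2). The lower genes pdf-1, nlp-62 and flp-17 were at -0.25, -0.24 and -0.24.

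Ribosomal protein, Wnt pathway, histone, heat shock and detoxification genes also had few genes called higher. The 59 ribosomal protein genes had no call by edgeR or DESeq2 (2 higher and 4 lower at an unadjusted p below 0.05), and the 25 Wnt pathway genes had none by edgeR (5 and 3) and 1 higher by DESeq2. Of 46 histone genes, his-42 was higher (log2FC 0.31, adjusted p = 0.0024), and his-62 and the adjacent his-61 (-0.25) were lower. These shares were 2.17% higher and 4.35% lower, against 3.17% and 0.747% of all genes. The windows of his-61 and his-62 overlap. Of 52 heat shock genes, hsp-16.1, a small heat shock gene with a near-identical relative, was higher at 646, 757 and 680.4 counts in met-2 set-25 against 554, 578 and 431 in WT (log2FC 0.42, SE 0.088, adjusted p = 0.00099). At an unadjusted p below 0.05, 13 of the 52 (25%) were higher and 2 lower, against 9.74% and 16.3% of all genes. DESeq2 called 4 of them higher and 0 lower, and with the index covariate 0 were called. Of 188 detoxification genes 2 were higher (1.06%) and 1 lower (0.532%).

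**Figure D5:**
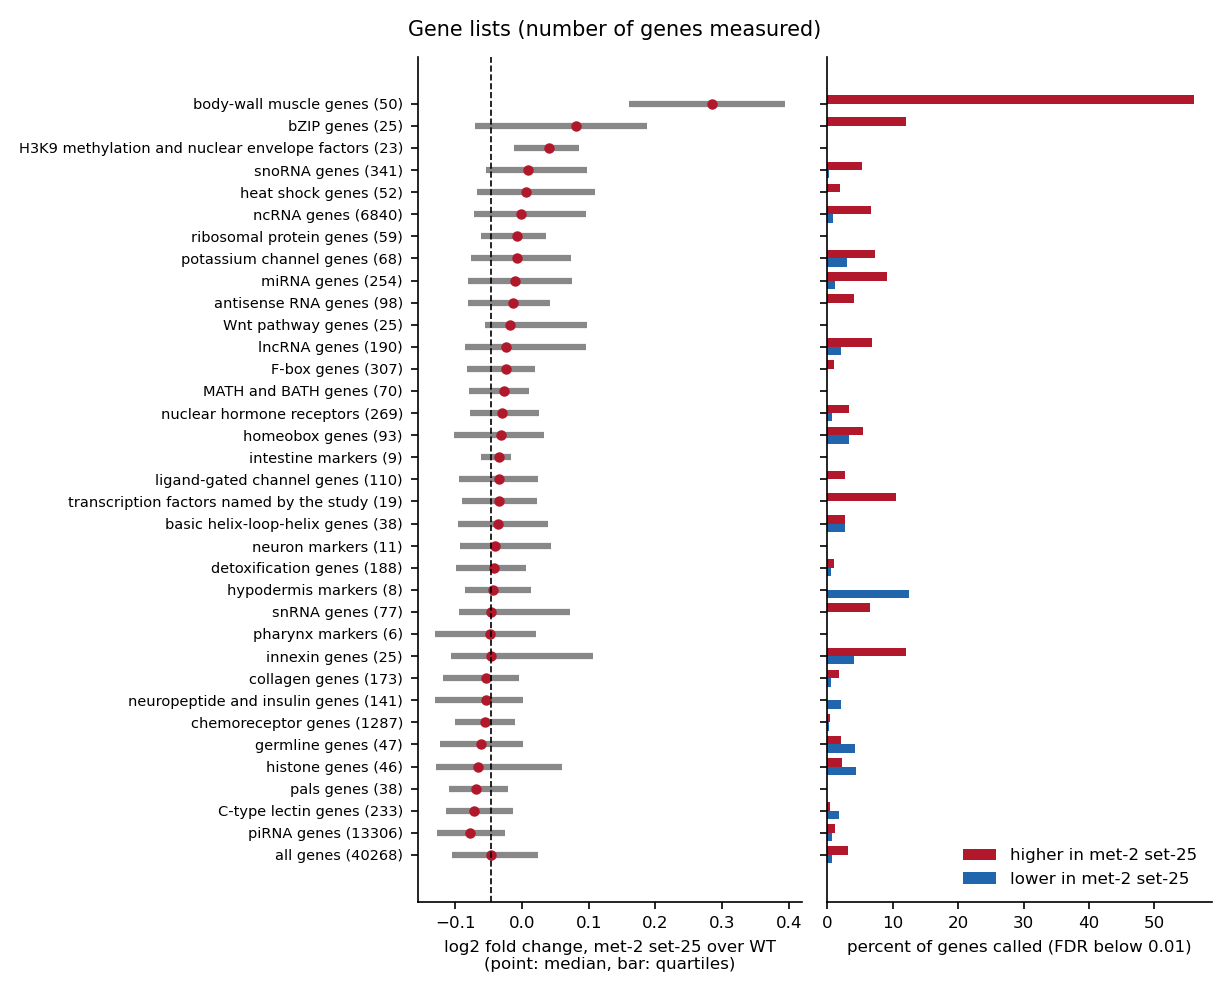
Median (points) and quartiles (bars) of the log2 fold change of met-2 set-25 over WT for each gene list (left) and the percent of its genes called higher or lower at an FDR below 0.01 (right), with the number of genes in parentheses and the median of all genes as a dashed line. Body-wall muscle genes stand out at a median of 0.28 and 56% called higher, and piRNA genes have the lowest median at -0.08 (0.0035 with the index covariate).

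Of 254 miRNA genes, 23 were higher (9.06%, against 3.17% of all genes) and 3 lower. Without met-2 set-25 replicate 2, 2 were higher, without WT replicate 3, 3, without WT replicate 1, 7, and with the index covariate, 1. In the highest decile of signal in the set-25 libraries, 17 of 59 miRNA genes were higher, against 674 of all 4027 genes of that decile. The neighbouring mir-239.1 and mir-239.2, on X from 11790878 to 11792832, share most of their window. mir-239.1 had 2902, 3389 and 2971 counts in met-2 set-25, against 1938, 2260.3 and 1846 in WT (log2FC 0.61, SE 0.081, adjusted p = 4.9e-07) and passed with the signal index as a covariate. The mir-51 family member mir-52 had high counts that varied widely between replicates, 6404, 9339 and 7822 in met-2 set-25, against 5039, 6384 and 4179 in WT (log2FC 0.59, SE 0.109, adjusted p = 0.00024). It was called neither without met-2 set-25 replicate 2 (adjusted p = 0.018) nor without WT replicate 3 (adjusted p = 0.013).

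Genes annotated as ncRNA had 460 of 6840 higher (6.73%) and 57 lower, and snoRNA genes 18 of 341 higher (5.28%) and 1 lower. Without met-2 set-25 replicate 2 these counts of higher genes were 54 and 2, and with the index covariate 5 and 1. Of the ncRNA genes, 237 of 2388 on X and 223 of 4452 on autosomes were higher. Over all genes it was 489 of 5315 on X and 789 of 34953 on autosomes. Of 190 lncRNA genes 13 were higher (6.84%) and 4 lower (2.11%), against 3.17% and 0.747% of all genes. At linc-133, counts were 2594, 2859 and 2804 in met-2 set-25, against 1852, 2259 and 1636 in WT (log2FC 0.52, adjusted p = 2.1e-05). The piRNA genes, most of which lie in clusters on chromosome IV, had 155 higher (1.16%) and 94 lower (0.706%) of 13306, against 3.17% and 0.747% of all genes. With TMM factors 191 were higher and 38 lower. Their median log2FC was -0.08, and 0.0035 with the index covariate. At an unadjusted p below 0.05, 3.09% were higher and 21.3% lower, against 9.74% and 16.3% of all genes. A short stretch of chromosome IV rose in several overlapping piRNA windows. There 21ur-7887, from 16030963 to 16032662, had 1829.8, 2127 and 2016 counts in met-2 set-25, against 1418, 1343 and 1398 in WT (log2FC 0.52, SE 0.060, adjusted p = 8.8e-09). The overlapping window of 21ur-5975 gave the same log2FC of 0.52 (adjusted p = 3.9e-08), and both passed with the signal index as a covariate.

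A few further loci passed the test both as reported and with the signal index as a covariate, and were named for this after their values were seen. C01A2.2 and mihp-1 are neighbours on chromosome I. C01A2.2, at 13396539 to 13398238, had 2407, 2863 and 2353 counts in met-2 set-25, against 1599, 1645 and 1687 in WT (log2FC 0.63, SE 0.072, adjusted p = 8.4e-09), and mihp-1 had 2267, 2335 and 2279.7 in met-2 set-25, against 1685, 1561 and 1618 in WT (log2FC 0.50, adjusted p = 1.5e-07). The lowest met-2 set-25 library exceeded the highest WT library at both. On chromosome III, sma-4, a Smad of the TGF-β pathway, and the overlapping R12B2.7 had a log2FC of 0.45 and 0.52 (adjusted p = 1.1e-05 and 5.5e-07). On chromosome I, the overlapping windows of F08A8.8 and the ncRNA gene F08A8.9 had 0.53 each, with 1941, 2269.8 and 1965 counts at F08A8.8 in met-2 set-25, against 1419, 1317 and 1534 in WT. Unlike Y47H10A.4 but like rrf-2, these loci had met-2 means that lay above WT. They were 2228 for C01A2.2, 2054 for mihp-1, 2124 for sma-4 and 1947 for F08A8.8. The set-25 means were 1641, 1677, 1698 and 1487, each within the WT range.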

How the data were processed

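ATAC-seq of sorted L3 body wall muscle was measured in 12 libraries. The authors deposited a table of raw counts per promoter window. According to the methods and the submitters' processing notes, they trimmed adaptors with cutadapt, aligned reads to ce10 with bowtie2, discarded duplicates (Picard), treated the mates of a pair as separate reads, corrected for the Tn5 offset and counted with QuasR irrespective of strand. The windows of 1700 bases are longer than the promoters described in the methods. The counting of repeated sequence is not given in the sources used here.

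Groups and replicate numbers came from the labels. Counts were normalized by the column total and brought to the mean total of all libraries. All 12 libraries were fitted with edgeR 4.0.16 in R 4.3.3 (glmQLFit, glmQLFTest, two-sided, library size as the column total, genotype as the only term), and windows were called at a Benjamini-Hochberg FDR below 0.01 over 51277 windows. Every adjusted p in the text is from this test unless another is named. The SE follows from the log2FC and the F statistic. A count of 3 was taken as the floor, 0.0292 to 0.0598 CPM in these 6 libraries, and covers counting error only. Between replicates the chi-square per window was 3.53 to 7.02, above the value of sampling noise. Named windows were called, did not overlap between the genotypes and, within 5000 bases, were led by the smallest FDR: 12 higher and 6 lower loci with a named protein-coding gene and an absolute log2FC of at most 0.9, up to 3 higher and 2 lower loci beyond it (2 higher loci were found), up to 3 called members of each list, and the genes the study names. The members, lists, rule and alternatives were chosen with earlier results of these data known. Gene names and biotypes are from RefSeq on WBcel235, matched by transcript identifier. In the count table, 355 windows had a chromosome other than that of their gene and were left out of the counts by gene.

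Alternatives were TMM factors, DESeq2 1.42.0, filterByExpr, the 6 libraries alone, a replicate block, the signal index as a covariate, a likelihood ratio test, other sets of windows, an FDR of 0.05 and each library left out. Tested on simulated data with 100 windows changed by 0.35 and 100 by 0.7 on the log2 scale, the fit recovered 90 and 100, with 2 false calls among 51277 windows. The simulation drew all windows independently with a common dispersion and changed only windows at or above the median level. No difference in signal index was simulated, so these numbers do not give the error rate of the calls in the data. Summaries and plots were made with matplotlib 3.10.9, scipy 1.17.1, numpy 2.4.6 and pandas 2.3.3 in Python 3.11.15. Promoter sequences and the study's other assays were not analysed here.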

Additional observations from a re-analysis of the deposited data

How the results depend on the processing

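The number of calls depended more on the libraries used and on the signal index than on the tool. In the main test 1763 windows and 1278 genes were higher in met-2 set-25 and 375 windows and 301 genes were lower. Leaving out each library in turn gave 244 to 2705 windows and 177 to 1956 genes higher, and 16 to 914 windows and 12 to 734 genes lower. The index covariate gave 32 windows and 26 genes higher and 7 windows and 4 genes lower, and 32 of the higher and 4 of the lower windows were shared with the main calls. TMM factors, which moved the median log2FC of all windows to -0.01 against -0.04, gave 128 windows and 100 genes lower. The likelihood ratio test gave 644 windows lower, and an FDR of 0.05 gave 3311 windows higher and 1993 lower. DESeq2, the low-count filter, the 6 libraries alone and the other sets of windows kept these totals within 1.5 times, while of the 44 list counts above 0 DESeq2 moved 14 and the 6 libraries alone 12 by more.

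Whether the replicate numbers pair the libraries was not settled, and the main fit used no block. The correlations of same-numbered met-2 set-25 and WT deviations were 0.0876, 0.399 and 0.110. Those of differently numbered libraries lay between -0.279 and 0.206. The replicate block gave 2750 windows and 1999 genes higher and 790 windows and 641 genes lower, and the block with TMM factors gave 3622 windows and 2585 genes higher.

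Of the 86 called windows that the naming rule gave, 1 changed sign under an alternative, the antisense gene anr-20 (log2FC 0.43, alternatives -0.07 to 0.56), as did 16 of the 28 not called. Among the windows with values in the text, with the index covariate, the log2FC was 0.0357 at met-2, -0.0187 at set-25, -0.0387 at unc-15, -0.0295 at egl-19 and 0.131 at Y47H10A.3. At Y47H10A.3 it was 0.0241 with TMM factors, 0.0262 with DESeq2, 0.0259 with the block and TMM factors, and -0.0656 to 0.0260 with a library left out. At unc-15 it was -0.0042 to 0.076 with a library left out. The cause of these changes was not tested.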
